A study of Mus musculus with 4 samples.

Results

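The data described here are the CpG methylation levels of 10 genes of the pluripotency network (Pou5f1, Nanog, Sox2, Dppa3, Zfp42, Klf4, Esrrb, Tdgf1, Lin28a and Utf1) in adult mouse liver. Members were the cytosines within 3000 bp of a curated RefSeq transcription start site (TSS) of these genes, called the TSS window, and those in the rest of each gene body. Of the 1276684 CpG cytosines that were read at least 10 times in all 4 mice, called common cytosines, 688 fell in these regions, 553 in TSS windows and 135 in gene bodies. They lay in 9 of the 10 genes, since Nanog had no common cytosine. Whole livers of 4 male mice aged 6 to 8 weeks on a normal diet were profiled by enhanced reduced representation bisulfite sequencing (ERRBS). Mixed-1 and Mixed-2 were on a mixed, undefined background that included C57BL/6J and other strains. B6-1 and B6-2 were C57BL/6 (Black-6) mice, kept at a different institution. Each mouse was 1 replicate of its strain, and no mouse carried a stated mutation or treatment.

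The genes belong to the network that keeps embryonic stem cells and the early embryo pluripotent, meaning able to form every tissue of the body. Its core factors bind DNA and activate each other, and most of the network is switched off when cells differentiate. Methylation of CpG cytosines at gene starts is one of the marks found at silent genes, while CpG-dense promoters (CpG islands) usually stay unmethylated in every tissue whether or not the gene is used. ERRBS cuts DNA with MspI at CCGG, reads the fragment ends after bisulfite treatment, and gives for each cytosine the percentage of reads that kept a C, the methylation level. It does not separate methylated from hydroxymethylated cytosines, and it carries no measure of expression. The reads summed over sites ranged from 60654199 to 99215153 per mouse, and the median coverage was 52 at the members' common cytosines against 51 at all common cytosines. Liver holds several cell types, so an intermediate level may be a mixture of cells.

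The promoters of the genes differ in their CpG content, and 5 of them are shown to let the letters be set beside the levels that follow. Each is the 250 bases upstream of a TSS, from RefSeq on GRCm38.p6, written 5′ to 3′ on the gene's strand, with every CpG in capitals. Klf4 lies at chr4:55532476-55532725 (minus strand), Sox2 at chr3:34649745-34649994 (plus), Pou5f1 at chr17:35505782-35506031 (plus), Nanog at chr6:122707239-122707488 (plus) and Tdgf1 at chr9:110946159-110946408 (minus).
Klf4 promoter: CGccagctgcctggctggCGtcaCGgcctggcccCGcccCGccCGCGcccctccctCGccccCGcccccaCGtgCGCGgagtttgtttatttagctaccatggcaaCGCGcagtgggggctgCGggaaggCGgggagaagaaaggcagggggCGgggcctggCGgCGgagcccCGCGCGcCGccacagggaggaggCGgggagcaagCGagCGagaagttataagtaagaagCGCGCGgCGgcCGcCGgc
Sox2 promoter: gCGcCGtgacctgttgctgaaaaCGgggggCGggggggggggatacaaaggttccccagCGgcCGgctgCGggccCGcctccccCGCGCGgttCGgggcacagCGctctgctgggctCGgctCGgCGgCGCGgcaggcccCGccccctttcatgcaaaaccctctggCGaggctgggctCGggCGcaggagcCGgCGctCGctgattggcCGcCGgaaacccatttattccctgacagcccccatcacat
Pou5f1 promoter: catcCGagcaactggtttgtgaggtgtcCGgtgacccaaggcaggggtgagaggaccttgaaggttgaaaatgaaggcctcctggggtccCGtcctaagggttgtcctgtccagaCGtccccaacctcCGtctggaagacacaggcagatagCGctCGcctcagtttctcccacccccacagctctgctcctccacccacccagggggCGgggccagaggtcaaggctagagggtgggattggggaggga
Nanog promoter: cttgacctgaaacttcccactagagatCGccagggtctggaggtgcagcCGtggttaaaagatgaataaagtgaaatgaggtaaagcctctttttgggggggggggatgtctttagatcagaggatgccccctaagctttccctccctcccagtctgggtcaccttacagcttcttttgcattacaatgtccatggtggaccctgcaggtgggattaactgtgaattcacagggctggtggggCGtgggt
Tdgf1 promoter: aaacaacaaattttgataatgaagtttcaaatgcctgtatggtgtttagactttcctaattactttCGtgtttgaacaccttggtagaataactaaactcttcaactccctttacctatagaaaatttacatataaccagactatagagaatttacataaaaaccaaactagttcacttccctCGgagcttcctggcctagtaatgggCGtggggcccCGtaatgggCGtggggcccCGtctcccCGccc

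The Klf4 stretch holds 32 CpGs and the Sox2 stretch 27, whereas Pou5f1 holds 8, Tdgf1 7 and Nanog 3. The median over the 250 bases of all promoters in the table was 6, with quartiles of 2 and 16. The promoter table held 9 of the 10 genes, and Dppa3 was not among them. The palindrome CCGG, which MspI cuts and which reads the same on both strands, was present in 47.05% of all promoters of this length. It occurred 3 times in the Sox2 stretch and 1 time in those of Klf4 and Pou5f1, while the stretches of Nanog and Tdgf1 had none. Of these 5 promoters, the Sox2 promoter alone had common cytosines, and its 12 averaged 1.99% and 0.819% in Mixed-1 and Mixed-2, and 0.833% and 1.04% in B6-1 and B6-2.

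On the mean of the 4 livers, 5 of the 9 readable genes had nearly unmethylated TSS windows, 2 had intermediate levels and 2 were highly methylated. In Mixed-2 both of the latter were under 80%, with Zfp42 at 79.8% and Tdgf1 at 70%. The 5 with a mean under 20% were Klf4, Sox2, Lin28a, Esrrb and Utf1. A mean under 20% was found at 75.7% of the 18415 RefSeq genes with a common cytosine near a TSS, so that this class is the usual one. Zfp42 and Tdgf1 were above 80%, the level of 9.89% of all these genes. Pou5f1 and Dppa3 lay between the bounds. The median TSS-window level was 4.60% over the 9 genes and 2.24% over all genes. These are counts over genes and carry no test.

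**Figure D1:**
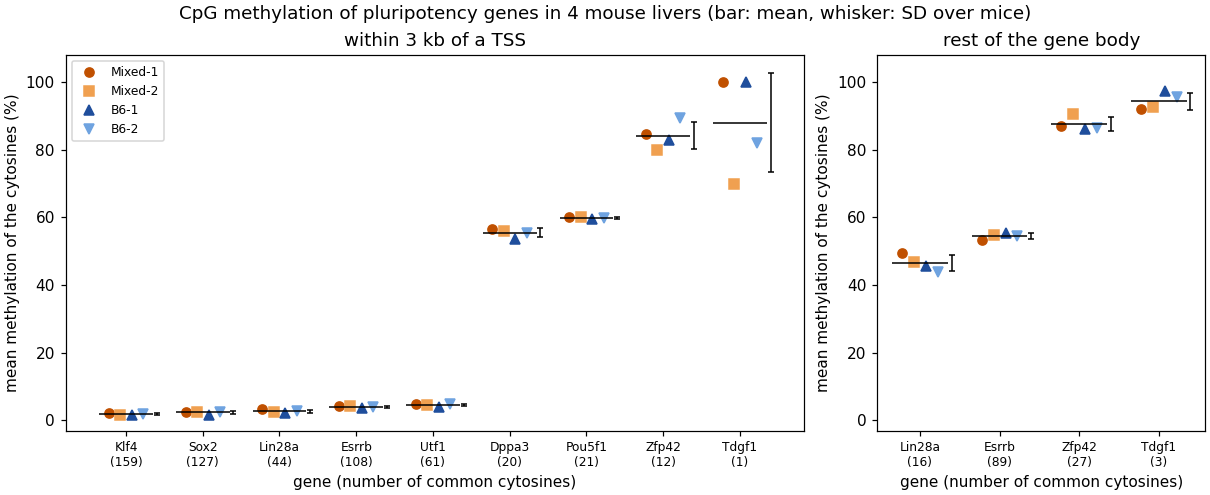
Mean methylation of the common cytosines (%, vertical axis) within 3 kb of a TSS (left) and in the rest of the gene body (right) for each gene, with the number of cytosines in brackets. Points are the 4 mice, bars their mean and whiskers the SD, and 5 genes lie under 5% near their TSS while Zfp42 and Tdgf1 lie above 80%.

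Klf4 encodes a zinc finger factor that is used in many adult tissues besides stem cells. Its gene (4:55527137-55532475, minus strand) had 159 common cytosines, the largest number in a TSS window of the 10 genes. Their mean level was 2.15% (Mixed-1), 1.55% (Mixed-2), 1.72% (B6-1) and 1.87% (B6-2), or 1.82% ± 0.257 (SD, n = 4). The low level was shared by all mice, and the strains overlapped. At 49 of the cytosines no read was methylated in any mouse. The lowest by rule, at +2286 in the coding sequence, had 0 methylated of 117 reads, which allows a level of up to 2.56%. Levels were not flat along the window. The 44 cytosines between +31 and +305 averaged 0.133% ± 0.0998 (SD, n = 4), those between +1539 and +2015 averaged 2.57%, and the 2 at +2605 and +2653 averaged 21.0% ± 0.751. The highest Klf4 cytosine, at +1591, had a level of 27.7% ± 6.31 (SD, n = 4).

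Sox2 encodes an HMG box factor that partners with OCT4, the product of Pou5f1, and also acts in neural progenitors. The gene (3:34649995-34652461, plus strand) sits inside the non-coding gene Sox2ot. Its 127 common cytosines averaged 2.65% and 2.61% in Mixed-1 and Mixed-2, and 1.68% and 2.56% in B6-1 and B6-2, or 2.37% ± 0.464 (SD, n = 4). B6-1 was the lowest mouse, and B6-2 lay just under the Mixed mice. Every one of the 127 cytosines was under 20%, and the highest reached 11.9% ± 5.20 at -1135.

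Esrrb encodes an orphan nuclear receptor that activates many genes of the network in naive stem cells. Its gene (12:86361117-86521628, plus strand) has 2 curated TSSs, with 2 common cytosines near the upstream and 106 near the downstream one. The window level was 4.26% (Mixed-1), 4.31% (Mixed-2), 3.55% (B6-1) and 4.11% (B6-2), or 4.06% ± 0.348 (SD, n = 4). Within this low mean, the level rose with distance from the downstream TSS. It was 0.501% ± 0.233 between +70 and +297, 4.70% ± 0.573 between +864 and +1333, 19.0% ± 5.29 between +1904 and +1980 and 29.3% ± 3.57 between +2095 and +2194 (SD, n = 4). The cytosine at +2160 was the highest of the window at 52.0% ± 7.68 (SD, n = 4).

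Lin28a encodes an RNA-binding protein that blocks maturation of let-7 microRNAs. The 44 common cytosines in its TSS window (gene at 4:134003330-134019196, minus strand) averaged 3.34% and 2.41% in Mixed-1 and Mixed-2, and 2.17% and 2.83% in B6-1 and B6-2, or 2.69% ± 0.513 (SD, n = 4). All 44 were under 20%, the highest being 14.4% ± 5.35 at +1335. Utf1, a chromatin-bound protein of undifferentiated cells, had 61 common cytosines (gene at 7:139943856-139945112, plus strand). Its level was 4.84% (Mixed-1), 4.58% (Mixed-2), 4.11% (B6-1) and 4.88% (B6-2), or 4.60% ± 0.353 (SD, n = 4). The mean joins unlike stretches. The 58 cytosines between +33 and +563 averaged 2.27% ± 0.289, and the 3 downstream of the gene, between +1816 and +1884, averaged 49.7% ± 6.81 (SD, n = 4). The 250 bases upstream of the Lin28a and Utf1 TSSs held no common cytosine.

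**Figure D2:**
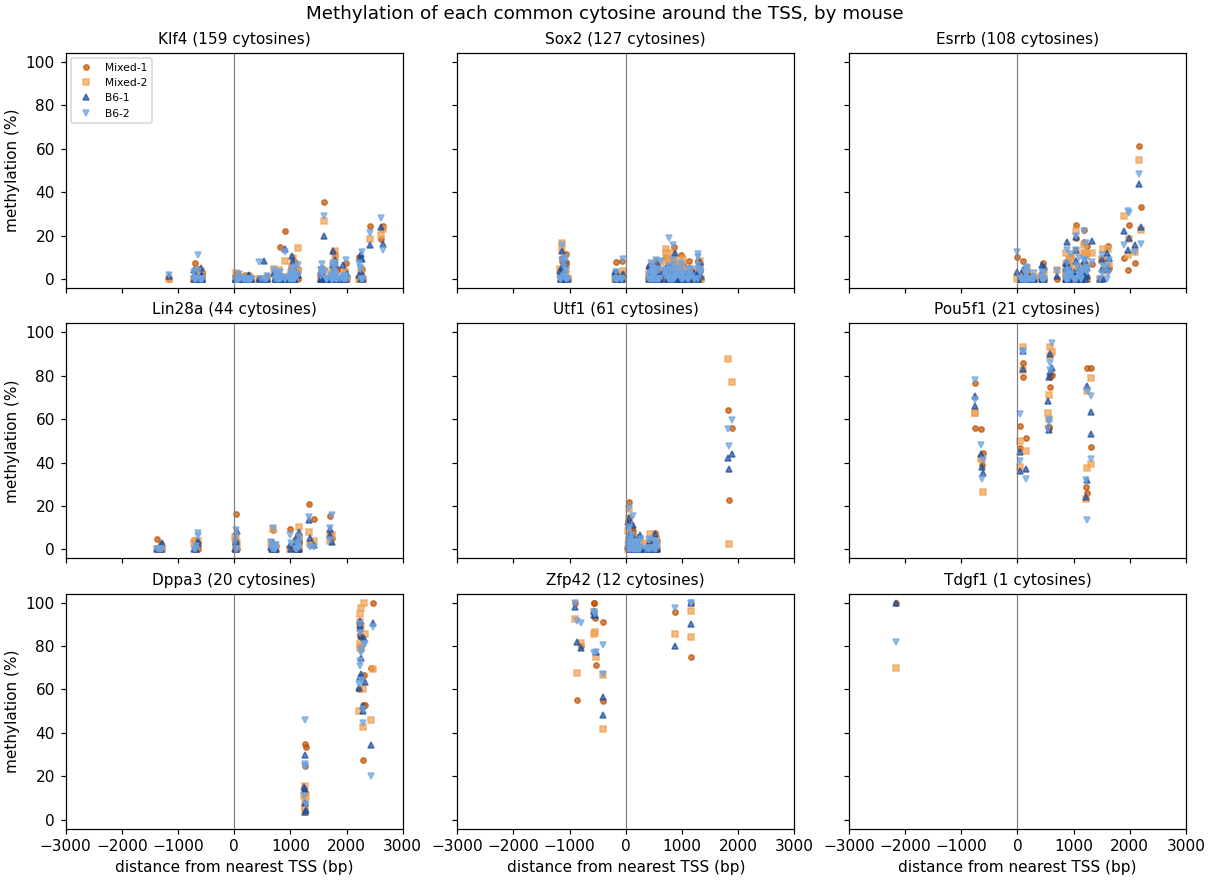
Methylation level of each common cytosine (%, vertical axis) against its distance from the nearest TSS of its gene (bp, horizontal axis), with 1 symbol per mouse. Negative is upstream of that TSS, and the negative cytosines of Pou5f1 are intronic, upstream only of its internal TSS. Klf4, Sox2, Esrrb, Lin28a and Utf1 sit mostly near 0 within 1 kb of the TSS, where Utf1 was read downstream only. Levels rise at the far cytosines of Klf4, Esrrb and Utf1, while no common cytosine of Dppa3 lay closer to its TSS than +1244.

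Pou5f1, which encodes OCT4, the factor that stem cells cannot do without, was partly methylated in every liver. The gene (17:35506032-35510777, plus strand) has 2 curated TSSs, and all 21 common cytosines lay in their windows and inside the gene. The 5 from -757 to -618 were intronic, and were upstream only of the second, internal TSS. The level was 60.1% and 60.2% in Mixed-1 and Mixed-2, and 59.5% and 59.7% in B6-1 and B6-2, or 59.9% ± 0.314 (SD, n = 4). The 4 mice thus differed by less than 1 point in this mean, in which every cytosine counts equally. With the reads pooled over these cytosines, the levels were 59.6% and 60.6% in Mixed-1 and Mixed-2, and 56.3% and 56.8% in B6-1 and B6-2. The single cytosines ranged from 26.9% to 88.7%. None of them was under 20% and 5 were above 80%. Of all genes with a readable TSS window, 84.8% had a lower level. No common cytosine lay in the 250 bases upstream of either TSS, so the promoters themselves were not read.

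Some cytosines of Pou5f1 that are close neighbours on the DNA had unlike levels, and the unlikeness recurred in every mouse. Other neighbours were alike on the mean of the mice, such as +551 at 60.6% and +569 at 60.5%. The places described are examples chosen after their values were seen. The stretches below are from introns, at chr17:35506573-35506656 (+551 to +614) and chr17:35507246-35507355 (+1224 to +1313), from GRCm38.p6 on the plus strand, with the CpGs that were measured in capitals.
Pou5f1 intron, first stretch: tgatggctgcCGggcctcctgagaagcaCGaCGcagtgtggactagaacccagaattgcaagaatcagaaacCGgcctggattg
Pou5f1 intron, second stretch: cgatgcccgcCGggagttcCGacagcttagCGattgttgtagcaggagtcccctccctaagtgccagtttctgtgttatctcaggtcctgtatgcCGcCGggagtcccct
In the second stretch, the first capital CpG (+1224) was at 28.6% (Mixed-1), 23.1% (Mixed-2), 24.3% (B6-1) and 31.8% (B6-2). The next one (+1233), 9 bases on, was at 83.3%, 73.1%, 75.0% and 72.7% in the same mice. The third (+1244) was back at 26.2%, 37.3%, 31.9% and 13.6%. The middle CpG was therefore the higher in all 4 livers, with no overlap with its neighbours. In the first stretch all 6 cytosines were above 60% on the mean of the mice, and together they gave a mean of 73.5% ± 4.74 (SD, n = 4). Over the 21 cytosines, the SD between cytosines was 20.4 points, the median SD between mice at the same cytosine was 6.49 points, and read counting alone would give 6.17 points. Pearson's r between the profiles of any pair of mice lay between 0.858 and 0.923, a description over 21 cytosines that share fragments and reads.

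Dppa3 (also called Stella) encodes a maternal protein that shields DNA in the zygote from demethylation. Its gene (6:122626424-122630271, plus strand) had 20 common cytosines, all of them inside the gene. The level was 56.7% and 56.0% in Mixed-1 and Mixed-2, and 53.6% and 55.4% in B6-1 and B6-2, or 55.4% ± 1.31 (SD, n = 4). This mean joins 2 unlike levels. The stretches that carry them are an intron at chr6:122627658-122627715 (+1244 to +1281) and a coding exon at chr6:122628644-122628763 (+2230 to +2329), both on the plus strand of GRCm38.p6, with measured CpGs in capitals.
Dppa3 intron: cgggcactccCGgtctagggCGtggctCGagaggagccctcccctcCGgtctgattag
Dppa3 coding exon: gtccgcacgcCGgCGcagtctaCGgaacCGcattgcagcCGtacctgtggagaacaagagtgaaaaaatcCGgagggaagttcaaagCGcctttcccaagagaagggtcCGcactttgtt
The 6 intronic cytosines averaged 21.8% (Mixed-1), 9.11% (Mixed-2), 12.5% (B6-1) and 23.4% (B6-2). The 12 exonic cytosines averaged 69.4%, 79.2%, 72.7% and 71.7% in the same mice. The exon was the higher in 4 of 4 mice. The 6 intronic cytosines were read only 14 to 27 times, and each had under 20 reads in at least 1 mouse. With at least 20 reads required in every mouse they dropped out, and the level of Dppa3 was 75.7%. Closer to the TSS, 3 intronic cytosines between +373 and +410 passed the minimum coverage only in the B6 mice, at 83.5% in B6-1 and 88.3% in B6-2. The low stretch thus lay between higher levels on both sides in these mice.

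**Figure D3:**
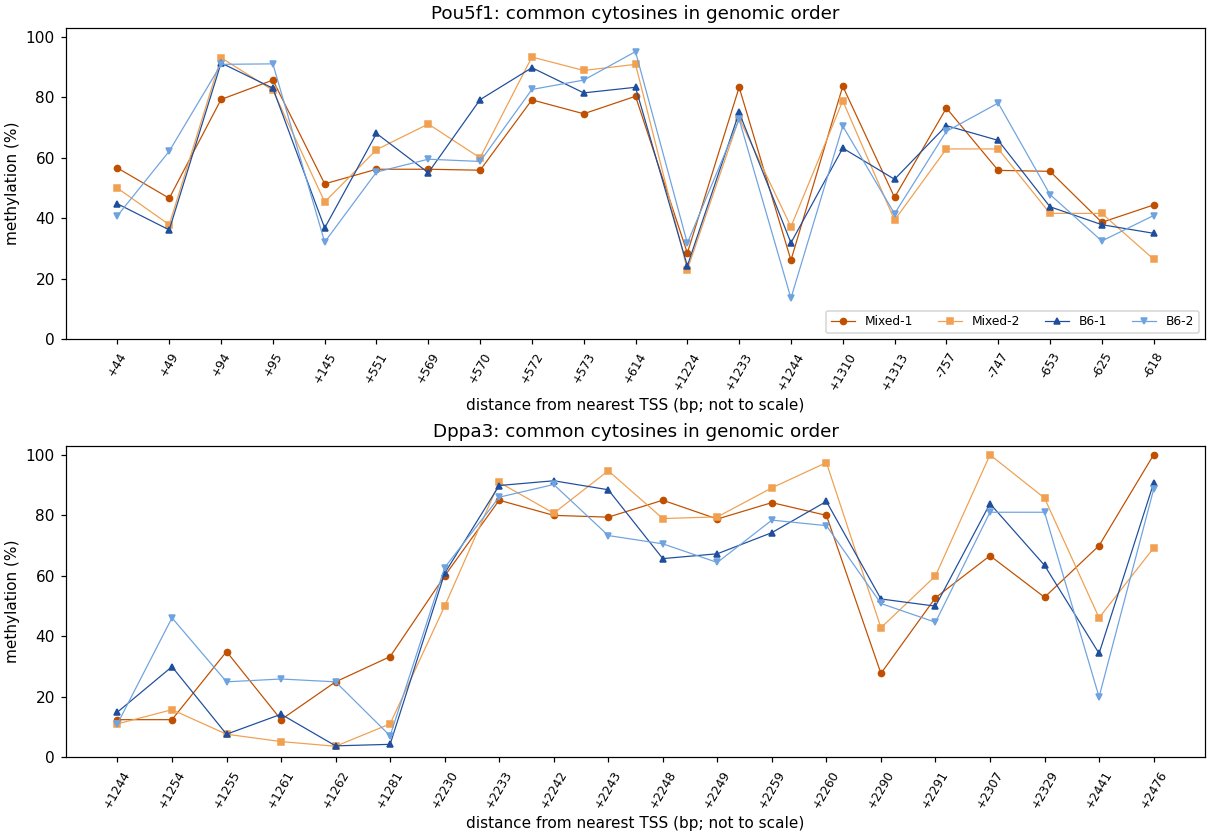
Methylation level (%, vertical axis) of the common cytosines of Pou5f1 (upper) and Dppa3 (lower) in genomic order, labelled by distance from the nearest TSS in bp (horizontal axis, not to scale), with 1 line per mouse. The 4 lines rise and fall together, with Pou5f1 at 76.0% at +1233 between 26.9% at +1224 and 27.3% at +1244.

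Zfp42 encodes REX1, a zinc finger protein used as a marker of naive stem cells, and it was the most completely methylated gene with more than a few cytosines. The 12 common cytosines of its TSS window (gene at 8:43295067-43307009, minus strand) averaged 84.6% and 79.8% in Mixed-1 and Mixed-2, and 82.9% and 89.3% in B6-1 and B6-2, or 84.2% ± 3.97 (SD, n = 4). B6-2 was the highest and Mixed-2 the lowest mouse, and the strains overlapped. The lowest cytosine, at -399, was at 59.2% ± 9.28, and the highest, at +1160, at 99.0% ± 2.00 (SD, n = 4). The 27 cytosines of the gene body, all in coding sequence, averaged 87.0% (Mixed-1), 90.5% (Mixed-2), 86.1% (B6-1) and 86.3% (B6-2). Methylation was thus high at most covered cytosines on both sides of the TSS and at the far end of the gene. No common cytosine lay between -399 and +881, so the start itself was not read. The 2 nearest upstream, at -399 and -406, averaged 63.3% ± 11.6 (SD, n = 4).

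Tdgf1 encodes Cripto, a co-receptor for the growth factor Nodal. Its window (gene at 9:110939608-110946158, minus strand) had 1 common cytosine, at -2158, so that its level rests on few reads. It was methylated in 17 of 17 reads in Mixed-1 (100%, Wilson 95% interval from 81.6% to 100%), in 7 of 10 in Mixed-2 (70%, from 39.7% to 89.2%), in 31 of 31 in B6-1 (100%, from 89.0% to 100%) and in 32 of 39 in B6-2 (82.1%, from 67.3% to 91.0%). Since amplified reads can stem from the same molecule, these intervals cover counting error only. Nearer to the TSS, 4 cytosines between -413 and -450 reached the minimum coverage in the B6 mice only, with means of 77.2% in B6-1 and 82.3% in B6-2. At -647 B6-2 had 10 methylated of 11 reads (90.9%), and at -1950 B6-1 had 4 of 16 (25%, Wilson 95% interval from 10.2% to 49.5%), the low exception in this window. The 3 common cytosines in the gene body averaged 94.4% ± 2.50 (SD, n = 4).

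Nanog encodes the homeobox factor whose level sets how firmly stem cells hold pluripotency. Its gene (6:122707489-122714633, plus strand) has few MspI sites. The 6 kb around its upstream TSS held 4 CCGG against a median of 9 over all genes, and 1 fragment of readable length was predicted there. The 4 cytosines read in any mouse came from an intronic stretch at chr6:122708073-122708131 (+518 to +556), shown with measured CpGs in capitals beside the upstream stretch of Tdgf1 at chr9:110946561-110946618, written on the minus strand of GRCm38.p6.
Nanog intron: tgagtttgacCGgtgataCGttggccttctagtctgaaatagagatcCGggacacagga
Tdgf1 upstream: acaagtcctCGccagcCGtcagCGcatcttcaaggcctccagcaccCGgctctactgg
In Nanog, Mixed-1 read the cytosines from +518 to +556 at 25%, 58.3%, 90.9% and 84.6%. B6-2 read the same ones at 18.8%, 18.8%, 35.7% and 76.9%, and B6-1 read only the last 2, at 30% and 70%. Mixed-2 had none with 10 reads. Coverage was between 10 and 16, and the Wilson 95% intervals at +527 ran from 62.3% to 98.4% in Mixed-1 and from 16.3% to 61.2% in B6-2. No level is given for Nanog over the 4 mice.

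The level rose from the TSS window to the gene body in Esrrb and Lin28a. Esrrb had 89 common body cytosines with a mean of 53.2% and 54.8% in Mixed-1 and Mixed-2, and 55.3% and 54.6% in B6-1 and B6-2. The body was 50.4 ± 1.17 points above the window (SD, n = 4 mice). Lin28a had 16, with 49.6%, 46.9%, 45.8% and 43.8% in the same mice, and its body was 43.8 ± 2.23 points above the window. With a TSS window of 1 kb the difference of Lin28a was 24.0 points. Both differences held in 4 of 4 mice, with a two-sided exact sign-flip permutation p of 0.125, the smallest that 4 mice allow. A body above the TSS window in all 4 mice was the pattern of 89.6% of the 11176 genes with sites in both regions. Zfp42 and Tdgf1, already methylated at the window, differed by 3.31 ± 5.62 points (3 of 4 mice higher, exact p = 0.375) and 6.35 ± 14.2 points (2 of 4 mice higher, exact p = 0.5), which is within the spread between mice.

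The body of Esrrb was not evenly methylated. Its cytosines ranged from 0% to 98.7%, with an SD of 36.3 points between cytosines and Pearson's r from 0.960 to 0.970 between mice. A stretch of 19 intronic cytosines at chr12:86402851-86403129, between the 2 TSSs, from -18783 to -18525 relative to the downstream one, was unmethylated in each liver. It is shown for its low level, with measured CpGs in capitals on the plus strand of GRCm38.p6. No curated or predicted Esrrb TSS of the annotation lies within 3000 bp of it.
Esrrb intron: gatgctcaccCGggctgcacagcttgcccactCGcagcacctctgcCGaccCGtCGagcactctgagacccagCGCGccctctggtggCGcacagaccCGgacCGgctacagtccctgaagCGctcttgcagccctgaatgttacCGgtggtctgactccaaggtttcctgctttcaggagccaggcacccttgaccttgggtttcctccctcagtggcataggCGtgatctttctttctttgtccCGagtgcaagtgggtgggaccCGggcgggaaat
Its mean was 1.50% (Mixed-1), 1.71% (Mixed-2), 1.30% (B6-1) and 2.14% (B6-2). The nearest measured stretches on either side, at 86395444 and 86407105, averaged 49.2% ± 1.92 and 90.5% ± 4.19 (SD, n = 4). A further stretch of 8 cytosines between +51934 and +52026 was low, at 12.8% ± 3.77. These are descriptions of places chosen after their values were seen.

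The order of the genes by methylation followed the CpG density of their windows only in part. The observed to expected CpG ratio, which corrects the CpG count for base composition, was 0.787 in the 6 kb around the Sox2 TSS and 0.652 around Klf4, above 99.8% and 97.7% of all genes. Pou5f1 at its upstream TSS and Nanog had 0.251 and 0.275, under the median of 0.306. Genes with a ratio from 0.2 to 0.3 had a median level of 36.3% with quartiles of 3.28% and 80.3%, and Pou5f1 fell inside these quartiles. Genes from 0.3 to 0.4 had a median of 1.87% and an upper quartile of 10.5%. Zfp42 with a ratio of 0.383 and Dppa3 with 0.350 were far above that upper quartile, while Lin28a with 0.380 was not. For ratios from 0.4 to 0.6 the upper quartile was 2.78%, and all 3 windows in this range were above it, Tdgf1 with a ratio of 0.422 at 88.0%, Utf1 with 0.482 at 4.60% and Esrrb at its downstream TSS with 0.463 at 4.06%. Sox2 at 2.37% and Klf4 at 1.82% were also above the upper quartile of 1.58% for ratios over 0.6. Read depth at its 1 cytosine and the distance of the Dppa3 cytosines from the TSS move with these placings, and their part in them was not tested.

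**Figure D4:**
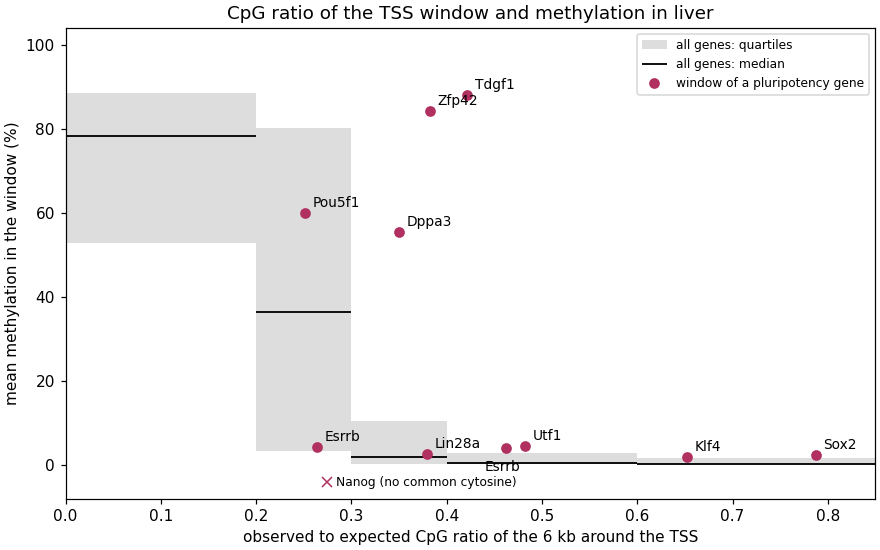
Mean methylation of the common cytosines in a TSS window (%, vertical axis) against the observed to expected CpG ratio of its 6 kb (horizontal axis), with points for the pluripotency genes, grey boxes for the quartiles of all genes in 5 ranges of the ratio and black lines for their medians. Zfp42, Dppa3 and Tdgf1 lie more than 40 points above the grey boxes of their range, Utf1, Sox2, Klf4 and Esrrb at its downstream TSS lie under 3 points above theirs, and the cross marks the ratio of Nanog, which has no level.

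Mixed and C57BL/6 livers were compared to ask whether background or housing shifts these genes. No member cytosine was called strain-variable, which needed an adjusted p under 0.01 and a difference of strain means of at least 25 points in a logistic model with overdispersion moderated by limma. Over all 1276684 common cytosines, 54 or 0.00423% were called. Among the 688, 12 or 1.74% had an unadjusted p under 0.05, against 1.87% of all, and Fisher's exact test on pooled reads called 1, against 1613 or 0.126% of all. The median absolute difference of strain means was 1.45 points, and 5 cytosines or 0.727% differed by 25 points or more, against 0.373% of all common cytosines. With 2 mice a strain, institution, depth and strain cannot be told apart.

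By gene, the TSS-window means of the strains did not overlap in 4 of 9 genes, near the 35.3% of all genes. They were Pou5f1 (Mixed 60.1% ± 0.0435, B6 59.6% ± 0.0983), Sox2 (2.63% ± 0.0229 and 2.12% ± 0.620), Dppa3 (56.3% ± 0.476 and 54.5% ± 1.29) and Esrrb (4.29% ± 0.0347 and 3.83% ± 0.395; SD, n = 2). Mixed was the higher in all 4, by 0.532 points in Pou5f1, 0.511 in Sox2, 1.80 in Dppa3 and 0.455 in Esrrb. Each had a two-sided exact permutation p of 0.333, the smallest that 2 against 2 allow, so no gene could pass a threshold of 0.05. With reads pooled over sites, the difference was 3.54 points in Pou5f1, and it turned to -0.155 points in Dppa3 and -0.329 in Esrrb. It turned to -4.27 points in Dppa3 and -3.14 in Esrrb with all sites of each mouse, and to -0.637 in Pou5f1 with a window of 1 kb. Of these 4 genes, Sox2 alone kept its direction under every setting run, and its difference was 0.0729 points without B6-1. In gene bodies, the strains did not overlap in 3 of 4 genes, against 35.9% of the 13215 genes with body sites. Mixed was higher by 2.55 points in Zfp42 and 3.48 points in Lin28a, and lower by 4.10 points in Tdgf1 (92.3% against 96.4%), again with an exact permutation p of 0.333 each.

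**Figure D5:**
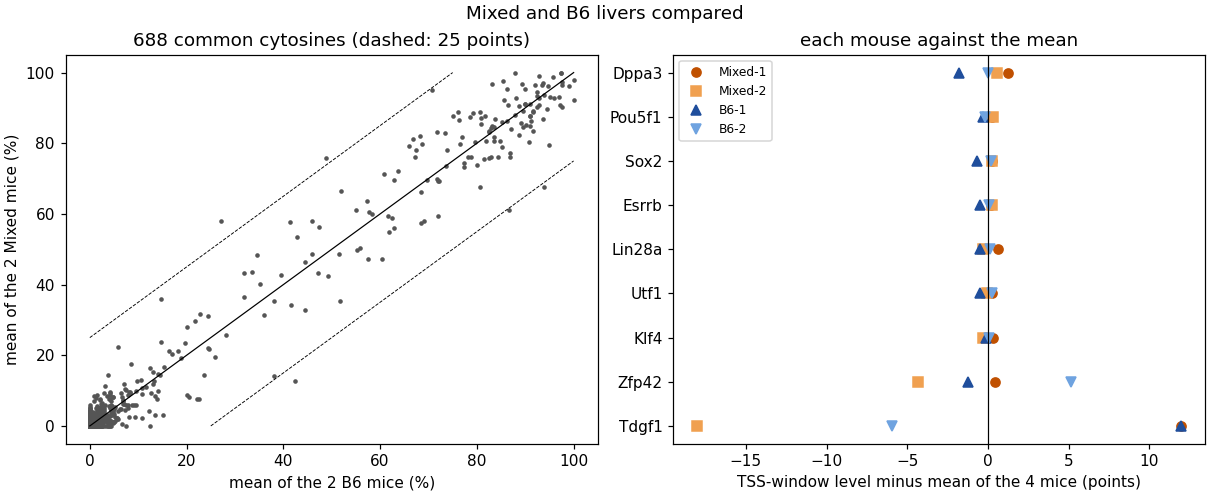
Left, mean level of the Mixed mice (%, vertical axis) against that of the B6 mice (%, horizontal axis) for each of the 688 common cytosines, with dashed lines at a difference of 25 points. Right, each mouse's TSS-window level minus the mean of the 4 mice (points) by gene, where Tdgf1 with its 1 cytosine spreads the most and 5 cytosines on the left lie beyond the dashed lines.

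The 5 cytosines with the largest strain differences were at Dppa3, Utf1, Esrrb and Zfp42. At Dppa3 +2441, an intronic cytosine read 10 to 35 times, the level was 70% and 46.2% in Mixed-1 and Mixed-2, and 34.4% and 20% in B6-1 and B6-2, a difference of 30.9 points. At Esrrb +30512 it was 63.6%, 71.4%, 97.6% and 90%, a difference of -26.3 points. At Zfp42 -877 it was 55%, 67.5%, 81.6% and 91.7%, a difference of -25.4 points. These cytosines were chosen for the size of the difference, so that the lack of overlap between the strains there is no separate result. Each had an adjusted p of 1 in the limma-moderated model.

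The other large differences sat together downstream of Utf1, in the stretch at chr7:139945662-139945750 on the plus strand of GRCm38.p6, whose measured CpGs are in capitals.
Utf1 downstream: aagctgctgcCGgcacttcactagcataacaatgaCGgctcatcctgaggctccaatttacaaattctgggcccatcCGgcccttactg
The first CpG (+1816, plus strand) was at 64% (Mixed-1), 87.5% (Mixed-2), 41.9% (B6-1) and 55.6% (B6-2). The minus-strand cytosine of the middle CpG (+1842) went the other way, at 22.8%, 2.56%, 36.9% and 47.7%, a difference of -29.6 points, and was the one that Fisher's exact test called. Its partner on the plus strand (+1841) was in the files of the B6 mice only, with 62 and 47 reads. The cytosine 25 bases before it on the same fragment had 25 and 32 reads in the Mixed mice, so reads did span the place. Whether the Mixed mice carry another base there was not tested.

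A list of 30 other pluripotency genes was read for comparison. Of the 29 with a common cytosine, 23 or 79.3% had a TSS window under 20%, against 75.7% of all genes. Another 3 lay between and 3 or 10.3% were above 80%, against 9.89% of all genes, and the median was 4.88%. Among those with at least 5 common cytosines the highest were Dppa4 (93.7% ± 1.39), which encodes a chromatin protein of the early embryo, Gdf3 (33.6% ± 5.60) and Nodal (29.6% ± 1.26; SD, n = 4), both growth factors of the TGF-beta family. The lowest were Stat3 (0.216%), Trim28 (0.249%) and Myc (0.275%), which are used in many adult cells. Dppa4 ranged from 92.4% to 95.7% over the mice. Members of the same families that are not restricted to stem cells were mostly under 20%, the class of 75.7% of all genes. Of 11, of which Klf2, Klf5 and Lin28b also stand in the list above, 10 were under 20%, among them Klf5 (0.463%), Esrra (0.104%), Pou2f1 (1.75%) and Yy1 (0.0952%), a relative of Zfp42. Cfc1, the relative of Tdgf1, stood at 40.6% ± 1.84 and Lin28b at 19.7% ± 2.35 (SD, n = 4).

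Genes that mark the tissue were set beside them. Of 12 liver genes, 6 had a common cytosine near a TSS, and Alb, Ttr, Apoa1, Fga, Tat and Cps1 had none. Of these 6, 2 or 33.3% were under 20%, against 75.7% of all genes. Their median was 30.8%, against 2.24% over all genes, so these levels do not by themselves show the tissue. Apoa2, a lipoprotein component, was at 0.743% ± 0.302, and Cebpa, a hepatocyte factor, at 0.346% ± 0.0696 (SD, n = 4). Hnf4a, a master regulator of hepatocytes, was at 31.6% ± 3.14 (SD, n = 4). The level of Fgb was 30.0% over 5 common cytosines. That of Serpina1a was 33.4% and rested on 1, with 48.5% in Mixed-1 and 27.6% in B6-1, the highest and lowest mouse. Of the 4 blood markers 1 was covered, Spi1 at 77.7% ± 1.55. Of the 4 endothelial markers 2 were, Pecam1 at 76.4% over 4 cytosines and Cdh5 at 24.4% over 3. All 4 markers of stellate cells and cholangiocytes were covered, with levels from 3.60% (Lrat) to 29.3% (Krt19). What share of the DNA came from cells other than hepatocytes was not tested.

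Levels at some cut sites went with the length of the neighbouring fragment. Of all common cytosines, 99.93% lay in the first 51 bases from an MspI cut. Cytosines inside a cut site whose neighbouring fragment was 46 to 50 bases long averaged 7.57% over 19642 sites, against 23.6% for neighbours of 51 to 55 bases and 24.8% for 41 to 45. Where the cytosine's own fragment was outside the usual length of 33 to 225 bases, so that reads could come only through the neighbour, the mean was 2.16% over 11041 sites. As background, end repair fills the cut ends with unmethylated cytosine, and a read that runs through a whole fragment reports that base. Whether this lowered the levels here was not tested. Among the 688 member cytosines, 5 lay at ends next to fragments of 46 to 50 bases. In Lin28a, 1 of them lay in the stretch at chr4:134011517-134011587, written on the minus strand of GRCm38.p6 with its CpGs in capitals.
Lin28a intron: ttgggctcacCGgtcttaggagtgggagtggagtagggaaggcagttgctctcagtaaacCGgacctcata
At the CpG on the left of this line, the minus-strand cytosine (+7239) was at 58.5% and 56.8% in Mixed-1 and Mixed-2, and 42.1% and 40.7% in B6-1 and B6-2. On the right, the minus-strand cytosine (+7289) was at 4.35%, 0%, 5% and 0%, while its partner on the plus strand was at 38.1%, 44.4% and 58.8% in the 3 mice that read it, Mixed-2, B6-1 and B6-2. Without the cytosine at +7289 the body level of Lin28a was 49.5% rather than 46.5%. The other 4 lay in the windows of Esrrb and Utf1, whose means became 4.13% and 4.76%.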

How the data were processed

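ERRBS libraries of 4 mouse livers were digested with MspI, bisulfite-converted and sequenced single-end. The study's methods name BSMAP and the submitters' processing notes name Bismark and SAMtools, on mm10. The authors deposited, per mouse and cytosine, the coverage as a count of reads (minimum 10) and the percent of reads that were C or T, without normalization. Levels were averaged over cytosines per mouse, then over the 4 mice. RefSeq annotation, genome and sequences were of GRCm38.p6, and 100% of the nuclear common cytosines fell on a CpG of it.

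Members, gene lists and tests were chosen with earlier results of these data known. Named items were the 10 genes, the lowest and highest cytosine of each window, the 5 cytosines with the largest strain difference, the 3 highest and 3 lowest other pluripotency genes with at least 5 cytosines, and the listed relatives and markers. Per-cytosine tests used a logistic model of methylated and unmethylated reads over all common cytosines, with overdispersion moderated by limma 3.58.1 (R 4.3.3, with data.table in version 1.17.8) and Benjamini-Hochberg adjustment. Its prior was estimated at cytosines with at least 5 expected reads of each kind, a choice made after a first fit. On simulated data with 200 of 100000 cytosines changed by 50 points it recovered 66.0% and made 0 false calls. Of the unchanged cytosines there, 1.98% had a p under 0.05 in this model. Recovery of differences under 50 points, or with a smaller share of cytosines changed, was not tested. Genes were compared with exact permutation tests over mice, which rank the observed difference among the relabelings or sign flips of these 4 animals. Python 3.11.15, numpy 2.4.6, scipy 1.17.1, pandas 2.3.3, pysam 0.24.0 and matplotlib 3.10.9 were used. Fragment lengths were first set to the labelled 70 to 320 bp, which held 60.4% of the common cytosines, and then to the observed 33 to 225 bases after the data were seen. The level of 1 of the covered liver markers is not reported here.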

Additional observations from a re-analysis of the deposited data

How the results depend on the processing

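Counts of genes by methylation class kept within 1.5 times of the reported ones, except as follows. The genes above 80% numbered 1 rather than 2 with at least 20 reads in every mouse, where the Tdgf1 cytosine dropped out, and 1 with a TSS window of 1 kb, which left 1 gene between 20% and 80%. With bounds of 10% and 90%, 0 of the genes, 1 of the other pluripotency genes and 865 of all genes were above the upper bound. Leaving out each mouse gave 5 genes under 20%, 2 between and 2 above in every case, and 5 to 8 genes with Mixed higher. Of 69 values of window levels under the other settings, 20 moved by more than the SD between mice, the largest being Dppa3, at 75.7% with 20 reads in every mouse. With predicted transcripts included, Lin28a reached 13.8% and Esrrb 11.3%. Leaving out cytosines at ends next to fragments of 46 to 50 bases, a setting chosen after seeing the data, changed no class.

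Small strain differences turned sign. With reads pooled they were -0.155 in Dppa3, 0.596 in Zfp42, -0.329 in Esrrb and -0.0585 in Lin28a. With all sites of each mouse they were -4.27 in Dppa3, -3.14 in Esrrb, 7.02 in Tdgf1 and -0.349 in Utf1. With a 1 kb window Pou5f1 was at -0.637. Leaving out 1 mouse gave ranges of -0.250 to 0.355 in Klf4, -0.0918 to 0.835 in Lin28a, -21.0 to 8.98 in Tdgf1 and -0.168 to 0.597 in Utf1. Without Mixed-1, Klf4 was at -0.250 and Lin28a at -0.0918, without Mixed-2 Tdgf1 was at 8.98, and without B6-1 Klf4 was at -0.0255, Tdgf1 at 2.95 and Utf1 at -0.168. The body minus window difference of Zfp42 was -0.543 with 20 reads in every mouse. The cause of these changes was not tested. Those of Esrrb and Lin28a kept their sign under every setting run, from 39.0 to 53.1 points in Esrrb and from 24.0 (1 kb window) to 63.8 points (predicted transcripts included) in Lin28a.

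No member cytosine was called under any setting of the model or without any mouse, and 1 was called by Fisher's exact test. Over all common cytosines, 54 calls became 1613 with Fisher's exact test, 149 at an adjusted p under 0.05 and 10 points, and 0 to 346 without 1 mouse (0 without either B6 mouse, 345 without Mixed-1 and 346 without Mixed-2). With the replicate block, 150 cytosines were called, 0 of them members. On the simulated data the block fit recovered 0 of the 200 changed cytosines, so its count of 0 cannot show that the members lack a difference. The replicate numbers did not pair the mice, with a correlation of their deviations of -0.000207 over all common cytosines. At 10 reads, 3 methylated reads make 30%, so single cytosines of low coverage carry wide intervals.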
